A study of Coturnix japonica with 144 samples.

Results

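BTG2 (BTG anti-proliferation factor 2, ENSCJPG00005018956) and TOB1 (transducer of ERBB2, 1, ENSCJPG00005021438) are the members of the BTG/TOB gene family described here. They were chosen by their identifiers and are 2 of the 21561 genes in the count table. RNA was sequenced from 3 brain regions of 48 adult Japanese quail kept reproductively quiescent. These were the hypothalamus, the Tn (nucleus taeniae, a telencephalic region set beside the mammalian medial amygdala) and the BnST (bed nucleus of the stria terminalis), 1 library from each region of each bird. Sensitized birds (24, with 13 males and 11 females) had spent the night in a closed box with 2 chicks, and control birds (24, with 8 males and 16 females) had spent it in the box alone. Every bird then met unfamiliar chicks before its brain was taken, so that control birds were not chick-naive when sampled. Response labels come without a key. R (17 birds) and NR (6) occur only among sensitized birds and were read as birds that did and did not respond to chicks, while S (5) and NS (17) occur only among controls and were read as spontaneous and no spontaneous care. This reading is not settled, because by the description of the behaviour more control males brooded, if briefly, than carry the label S, so that NS also covers some males with brief brooding and the contrasts of labels below are contrasts of labels, not of care against no care. The other 3 birds are labelled NA.

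BTG/TOB proteins share an N-terminal domain that binds the catalytic subunits of the CCR4-NOT complex, the main enzyme that shortens the poly(A) tails of mRNAs, and in mammals they are best known as brakes on cell division and as promoters of mRNA decay. TOB1 also carries motifs that bind the cytoplasmic poly(A)-binding protein. In mammals BTG2 is induced within minutes by growth factors and by neuronal activity, in the manner of immediate early genes such as FOS, which encodes a subunit of the transcription factor AP-1 and is widely used as a marker of recently active neurons. BTG2 and TOB1 were brought to attention by the original tests on these same birds. Neither the differences nor the correlations over all birds given below are therefore independent evidence of those tests. In bulk tissue, fewer cells of a type and less RNA per cell cannot be told apart.

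Both genes were well covered. Libraries held 9664414 to 19640873 counts on genes (median 12636688). BTG2 had between 910 and 5105 counts in a library and TOB1 between 731 and 2061, so that counting error at the median level of a region was between 2.16% and 3.07% and small beside the spread between birds. Levels are given as CPM, counts scaled to a common library total, after TMM normalization of all libraries together. They are not corrected for gene length, and the levels of the genes are therefore not compared with each other. In the first principal component of the BnST, the library of bird 49 stood farthest out, at 89.4 against 41.5 for the next bird. Bird 17, labelled male, had a mean log2 level of 3.47 in the BnST over 50 genes chosen as male-biased in the hypothalamus of the other birds, against 4.09 to 4.40 in the other 20 males and 3.13 to 3.53 in females. In the Tn the same genes were at 3.43 in bird 17, against 3.96 to 4.39 in the other males and 3.11 to 3.48 in females. Both values lay in the range of females, so the sex label of bird 17 is uncertain. The label was kept, and the counts and correlations by sex below include bird 17 among males unless stated.

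Both genes were highest in the BnST. BTG2 averaged 126.4 ± 26.03 CPM in the hypothalamus, 193.4 ± 73.8 CPM in the BnST and 134.2 ± 32.8 CPM in the Tn (SD, n = 48 each). TOB1 averaged 81.9 ± 8.80 CPM in the hypothalamus, 101.8 ± 13.9 CPM in the BnST and 83.5 ± 8.23 CPM in the Tn. The ranges of the regions overlapped widely for BTG2, with 75.4 to 181.1 CPM in the hypothalamus, 88.4 to 422.0 CPM in the BnST and 78.9 to 261.0 CPM in the Tn. All libraries entered 1 fit, which took the libraries of a bird as independent. In this fit BTG2 was lower in the hypothalamus than in the BnST by a log2 difference of -0.61 (SE 0.08, adjusted p = 3.94e-11 by edgeR's quasi-likelihood test). It was higher in the BnST than in the Tn, with 0.54 (SE 0.08, adjusted p = 3.49e-09 by edgeR). The same order was found for TOB1, with -0.31 for hypothalamus over BnST (SE 0.03, adjusted p = 3.17e-15 by edgeR) and 0.29 for BnST over Tn (SE 0.03, adjusted p = 4.27e-14 by edgeR). The hypothalamus and the Tn did not differ beyond their spread in either gene. Their log2 difference was -0.07 for BTG2 (95% interval -0.23 to 0.08, adjusted p = 0.426 by edgeR) and -0.02 for TOB1 (-0.08 to 0.05, adjusted p = 0.677 by edgeR). Differences between regions were common across the transcriptome, as 59.4% of genes tested were called between hypothalamus and BnST, 68.3% between hypothalamus and Tn and 61.7% between BnST and Tn.

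**Figure D1:**
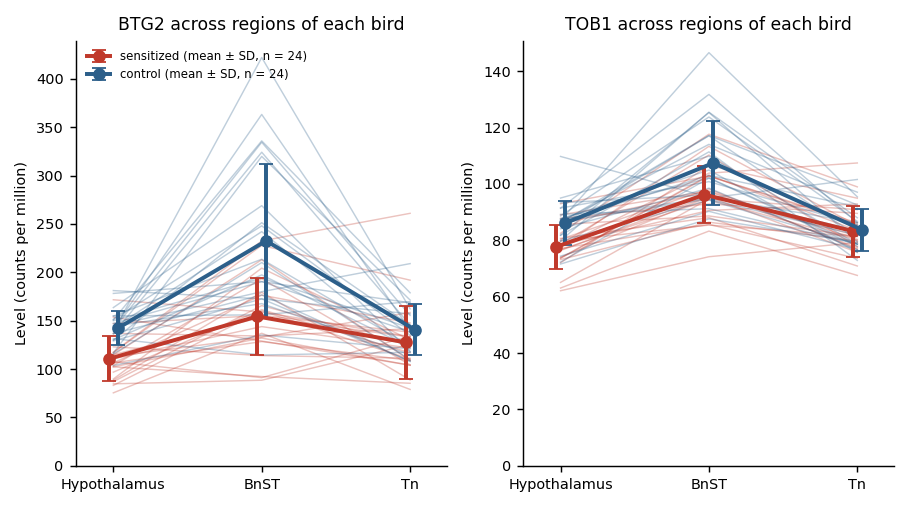
Level of BTG2 (left) and TOB1 (right) in CPM in the hypothalamus, the BnST and the Tn, with a thin line for each bird and the mean ± SD of the 24 sensitized and the 24 control birds as thick lines. Most lines peak in the BnST (35 of 48 birds for BTG2, 43 of 48 for TOB1). The control mean lies above the sensitized mean in the hypothalamus and BnST. In the Tn it does so by less (140.8 against 127.6 CPM for BTG2, 83.8 against 83.3 CPM for TOB1).

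The order held within single birds for most of them. The BnST was the highest of the 3 regions in 35 of 48 birds for BTG2 and in 43 of 48 for TOB1. BTG2 was higher in the hypothalamus than in the BnST in 8 birds, 6 of them sensitized, and TOB1 in 1 control bird. BTG2 was higher in the hypothalamus than in the Tn in 6 of 24 sensitized and in 14 of 24 control birds, and TOB1 in 8 of 24 sensitized and in 15 of 24 control birds. A fit with the bird as a replicate block gave log2 differences of -0.56 for BTG2 and -0.31 for TOB1 between hypothalamus and BnST, with the same calls.

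The genes differed in how much they varied among birds. Within treatments, the SD of the log2 level of BTG2 was 0.24 (hypothalamus), 0.44 (BnST) and 0.32 (Tn), above 88.4%, 94.6% and 91.0% of the 500 genes of nearest mean level in the region. The SD of TOB1 in the same regions was 0.14, 0.18 and 0.14, above 47%, 48.2% and 44.2% of its neighbours. FOS, the partner gene in the correlations below, had SDs of 0.28, 0.39 and 0.32. BTG2 thus varied about as much as FOS, and TOB1 like a gene of average spread.

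The treatment comparison sets birds that had spent the night with chicks against birds that had not. For control birds the meeting before sampling was the first with chicks in the experiment. An effect of the night and a response of control birds to that first meeting cannot be told apart. In the hypothalamus BTG2 was down-regulated in sensitized birds. It ranged from 75.4 to 171.6 CPM (median 106.9) in sensitized birds and from 103.6 to 181.1 CPM (median 141.9) in control birds. The groups overlapped, but 21 of 24 sensitized birds lay below the control median and 10 below every control bird. Means were 110.5 ± 23.3 CPM in sensitized birds and 142.2 ± 17.9 CPM in control birds (SD, n = 24 each), a log2 difference of -0.36 (SE 0.07, adjusted p = 0.0142 by edgeR's quasi-likelihood test). Only 0.0207% of the genes tested in the hypothalamus (3 of 14491) were called, and BTG2 had the third lowest p. The call held in all 9 alternatives run, with adjusted p between 7.96e-04 and 0.0296. The labels name no batch. The bird numbers were split here into birds 1 to 20 and birds 21 to 50, called number series. That cut was chosen for this report and is not given by the labels. Within birds 1 to 20 the log2 difference was -0.42 (exact permutation test, p = 7.94e-05, 11 sensitized and 8 control birds). Within birds 21 to 50 it was -0.33 (permutation test, p = 0.00324, 13 sensitized and 16 control birds).

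TOB1 in the hypothalamus lay lower in sensitized birds by a smaller amount that did not pass the test over all genes. It ranged from 62.1 to 93.0 CPM (median 77.6) in sensitized birds and from 71.6 to 109.8 CPM (median 86.7) in control birds. As for BTG2, 21 of 24 sensitized birds lay below the control median, although only 3 lay below every control bird. Means were 77.7 ± 7.68 CPM in sensitized birds and 86.1 ± 7.89 CPM in control birds (SD, n = 24 each). The log2 difference was -0.15 (SE 0.04, unadjusted p = 5.56e-04, adjusted p = 0.576 by edgeR), and adjusted p ranged between 0.183 and 0.757 over the 9 alternatives. TOB1 had the p of rank 14 among the 14491 genes. The difference was -0.16 within birds 1 to 20 (exact permutation test, p = 0.00814) and -0.14 within birds 21 to 50 (permutation test, p = 0.0223).

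In the BnST the log2 difference in BTG2 had a larger value than in the hypothalamus. The effects in the 2 regions were not shown to differ (0.23 between them, SE 0.14, adjusted p = 0.99975 by edgeR). Values ran from 88.4 to 232.5 CPM (median 154.5) in sensitized birds and from 114.5 to 422.0 CPM (median 203.7) in control birds. Of the 24 control birds, 10 lay above every sensitized bird, and 20 of 24 sensitized birds lay below the control median. Means were 154.3 ± 40.2 CPM in sensitized birds and 232.5 ± 79.6 CPM in control birds (SD, n = 24 each), a log2 difference of -0.59 (SE 0.12, adjusted p = 0.0323 by edgeR). The background was 0.0556% of genes called (8 of 14384). With limma-voom in place of edgeR the difference was -0.56 and the adjusted p was 0.0541, while the 8 other alternatives kept the call, with adjusted p down to 1.57e-07. Without bird 49, whose library stood apart and which had 179.3 CPM, 19 of 23 sensitized birds lay below the control median. The difference was -0.67 within birds 1 to 20 (exact permutation test, p = 0.00363) and -0.51 within birds 21 to 50 (permutation test, p = 0.00488).

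TOB1 in the BnST had 74.2 to 117.7 CPM (median 95.6) in sensitized birds and 87.6 to 146.6 CPM (median 102.6) in control birds. The overlap was wider than for BTG2, with 16 of 24 sensitized birds below the control median and 5 of 24 control birds above every sensitized bird. Means were 96.2 ± 10.2 CPM in sensitized birds and 107.5 ± 15.1 CPM in control birds (SD, n = 24 each). The log2 difference of -0.16 (SE 0.05, unadjusted p = 0.00302) did not pass the test over all genes (adjusted p = 0.781 by edgeR). It passed in 1 of 9 alternatives, with 2 surrogate variables as covariates (-0.17, adjusted p = 0.00240), against an adjusted p of up to 0.841 in the others. Within birds 1 to 20 the difference was -0.19 (exact permutation test, p = 0.0563), and within birds 21 to 50 it was -0.14 (permutation test, p = 0.0251).

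In the Tn neither gene was called. BTG2 had 78.9 to 261.0 CPM (median 122.9) in sensitized birds and 107.8 to 209.0 CPM (median 139.4) in control birds, with 19 of 24 sensitized birds below the control median. Means were 127.6 ± 37.6 CPM in sensitized birds and 140.8 ± 26.4 CPM in control birds (SD, n = 24 each). Its log2 difference was -0.14 (95% interval -0.32 to 0.04, adjusted p = 0.939 by edgeR), in a region where 0% of genes tested were called (0 of 14242 by edgeR, DESeq2 and limma-voom, with 678 at an unadjusted p under 0.05 by edgeR). With 2 surrogate variables the difference was -0.30 and passed the test (adjusted p = 0.00809), the only one of 9 alternatives to do so, with adjusted p up to 0.975 in the others. The number series gave unlike values here, which were not tested against each other. The difference was -0.03 within birds 1 to 20 (exact permutation test, p = 0.871) and -0.30 within birds 21 to 50 (permutation test, p = 0.00516, adjusted 0.0124 over the 12 tests of treatment within series). The highest value, 261.0 CPM, belonged to bird 14, a sensitized male labelled R. Over all birds the difference of mean log2 levels was -0.17 (permutation test, p = 0.0750). Without bird 14 it was -0.21 (permutation test, p = 0.0108), and within birds 1 to 20 without bird 14 it was -0.12 (exact permutation test, p = 0.380). Bird 14 was left out after its value was seen. Leaving out the highest sensitized bird had to lower the difference, so nothing is concluded from the p-values without it.

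TOB1 in the Tn had nearly the same level in both treatments. It ranged from 67.6 to 107.5 CPM (median 81.4) in sensitized birds and from 72.9 to 101.6 CPM (median 81.7) in control birds. Means were 83.3 ± 9.07 CPM in sensitized birds and 83.8 ± 7.49 CPM in control birds (SD, n = 24 each), and the 95% interval of the log2 difference was -0.09 to 0.07 (adjusted p = 0.995 by edgeR).

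**Figure D2:**
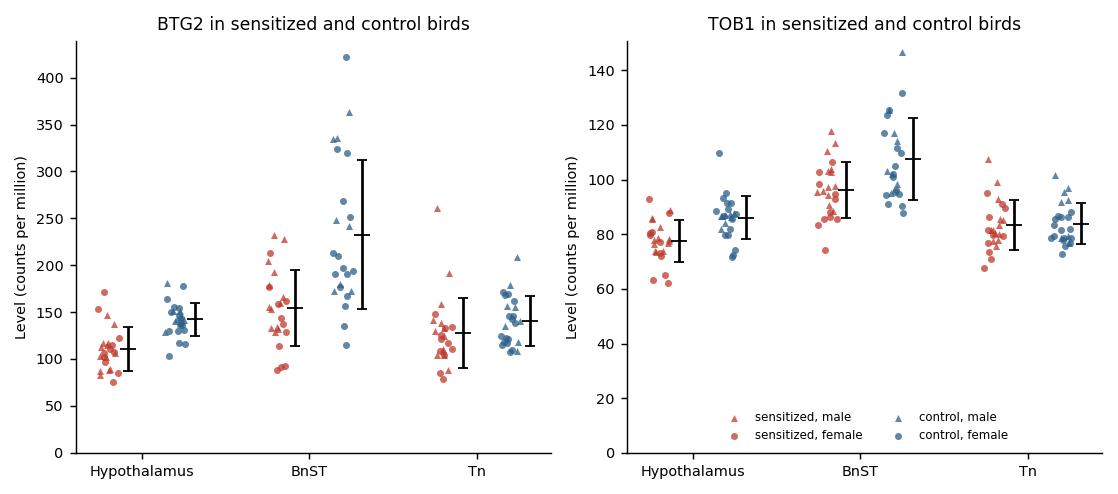
Level of BTG2 (left) and TOB1 (right) in CPM in each bird by region, sensitized birds in red left of control birds in blue, with triangles for males and circles for females and black bars for the mean ± SD (n = 24 each). BTG2 means are 110.5 against 142.2 in the hypothalamus, 154.3 against 232.5 in the BnST and 127.6 against 140.8 in the Tn, with overlapping groups in each region.

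The log2 difference between treatments was larger in BTG2 than in TOB1. The original tests on these birds had called BTG2 for treatment in the hypothalamus and BnST, and TOB1 only for brooding duration. A larger value in BTG2 was thus partly built into the choice of genes, and the tests here are not independent evidence of it. The log2 level of BTG2 minus that of TOB1 was compared per bird between sensitized and control birds. This difference between the effects was -0.23 in the hypothalamus (permutation test, p = 3e-04, adjusted 4.5e-04 over 3 regions), -0.41 in the BnST (p = 2e-05, adjusted 6e-05) and -0.16 in the Tn (p = 0.0352, adjusted 0.0352). The difference in the Tn missed the threshold without bird 49 (-0.14, permutation test, p = 0.0579) and within birds 1 to 20 (-0.05, exact permutation test, p = 0.687). It was -0.15 without bird 17 (permutation test, p = 0.0491) and -0.26 within birds 21 to 50 (permutation test, p = 0.0042). The number series were not tested against each other. A test of whether the effect of treatment differed between regions, in 1 fit of all libraries, called 0% of genes for each pair of regions (0 of 15131 by edgeR and by limma-voom, 1 by DESeq2 for hypothalamus against BnST and 0 for the other pairs). By edgeR, 236 genes had an unadjusted p under 0.05 for hypothalamus against BnST, 195 for hypothalamus against Tn and 370 for BnST against Tn. BTG2 had the p of rank 6 for BnST against Tn, with a log2 difference of -0.45 between the effects (SE 0.14, unadjusted p = 0.00162, adjusted p = 0.99988 by edgeR). The same value was -0.15 for TOB1 (SE 0.06, unadjusted p = 0.0172, adjusted p = 0.99988 by edgeR). For hypothalamus against BnST the values were 0.23 for BTG2 (unadjusted p = 0.105) and 0.01 for TOB1 (0.855), by edgeR. For hypothalamus against Tn they were -0.22 (0.116) and -0.14 (0.0276), by edgeR. This fit took the libraries of a bird as independent. Neither gene passed for any pair in 7 alternatives, which included the bird as a replicate block. After adjustment over all genes, a different effect in different regions was therefore not shown for either gene.

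An influence of sex on the effect of treatment was not shown for either gene. In the hypothalamus, 12 of 13 sensitized males lay below the median of control males in BTG2 and 9 of 11 sensitized females below that of control females. In the BnST this was 13 of 13 males and 10 of 11 females. BTG2 averaged 169.2 ± 35.9 CPM in sensitized males (SD, n = 13) and 256.1 ± 79.3 CPM in control males in the BnST (SD, n = 8). It averaged 136.8 ± 39.4 CPM in sensitized females (SD, n = 11) and 220.7 ± 79.6 CPM in control females (SD, n = 16). For TOB1 in the hypothalamus, 12 of 13 sensitized males and 9 of 11 sensitized females lay below the control median of their sex. Control males were closely spaced there, between 81.9 and 87.8 CPM. The interaction of sex with treatment had log2 values of -0.15, 0.09 and 0.12 for BTG2 in the hypothalamus, BnST and Tn and of 0.06, 0.05 and -0.07 for TOB1, with SEs between 0.08 and 0.25 and adjusted p between 0.9996 and 0.9999 (edgeR). It called 0% of genes in each region by edgeR and limma-voom and 1 gene by DESeq2, in the Tn, with 502, 605 and 456 genes at an unadjusted p under 0.05 by edgeR.

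Other early response genes gave the setting of BTG2. Of a list of 35 such genes, 10 could be matched to a row of the table, and all 10 had been drawn from the original tests on these birds, so their directions are not independent evidence. The other 25 were not analysed here. In the BnST, 6 of the 10 were down-regulated in sensitized birds (NPAS4, EGR4, SIK1, RRAD, KLF2 and FOS) and 0 were up-regulated, with a median log2 difference of -0.48 over the 10, where 0.0556% of all genes tested were called. Since the 10 were drawn from tests of this contrast, nothing is read from that share. BTG2 with -0.59 lay between FOS (-0.65, adjusted p = 0.00229 by edgeR) and RRAD, a small GTPase that restrains calcium channels (-0.56, adjusted p = 0.0241 by edgeR). In the hypothalamus 0 of the 10 passed by edgeR (9 at an unadjusted p under 0.05), all 10 had negative values and their median was -0.36, the same as BTG2, whereas TOB1 with -0.15 was close to JUN with -0.13. FOS (adjusted p = 0.0773 by edgeR) and EGR1 (0.0877) lay nearest the threshold. The original tests, made with DESeq2, had called FOS and EGR4 in the hypothalamus. Over all genes, DESeq2 called 8 for treatment there and edgeR 3. In the Tn, 9 of the 10 had negative values and 0 passed by edgeR (4 at an unadjusted p under 0.05), with a median of -0.20. Over all genes tested, the median log2 difference was -0.00213 (hypothalamus), 0.00445 (BnST) and 0.00405 (Tn).

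Brooding duration is not among the labels, and the response labels stood in for it. Birds labelled R or S (22) were set against birds labelled NR or NS (23), and this contrast is tied to treatment because 17 of the 22 were sensitized while 17 of the 23 were controls. In the hypothalamus BTG2 was lower in birds labelled R or S, with 75.4 to 147.1 CPM (median 109.0), than in birds labelled NR or NS, with 103.6 to 181.1 CPM (median 144.1). Of the 22 birds labelled R or S, 21 lay below the median of the others and 9 below every one of them. Means were 108.0 ± 19.1 CPM in birds labelled R or S (SD, n = 22) and 142.8 ± 21.4 CPM in birds labelled NR or NS (SD, n = 23), a log2 difference of -0.40 (SE 0.07, adjusted p = 0.00223 by edgeR). The background was 0.0621% of genes called (9 of 14488). The call was lost with treatment as a covariate (-0.27, unadjusted p = 4.14e-04, adjusted p = 0.260), and kept in the 7 other alternatives, with adjusted p down to 2.25e-05. Within birds 1 to 20 the difference was -0.25 (exact permutation test, p = 0.0941, 12 against 5 birds), and within birds 21 to 50 it was -0.47 (permutation test, p = 2e-05, 10 against 18 birds).

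TOB1 in the hypothalamus had a log2 difference of -0.15 in the same contrast (SE 0.04, unadjusted p = 6.69e-04), which did not pass over all genes (adjusted p = 0.329 by edgeR, between 0.134 and 0.578 over the 8 alternatives). Its means were 77.4 ± 6.74 CPM in birds labelled R or S (SD, n = 22) and 85.7 ± 8.54 CPM in birds labelled NR or NS (SD, n = 23), and 20 of 22 birds labelled R or S lay below the median of the others. Neither gene passed in the other regions. BTG2 had -0.28 in the BnST (95% interval -0.58 to 0.01, adjusted p = 0.998) and -0.06 in the Tn (-0.26 to 0.14, adjusted p = 0.99998), all by edgeR. TOB1 had -0.08 (-0.20 to 0.03, adjusted p = 0.998) and -0.06 (-0.14 to 0.03, adjusted p = 0.99998) in the same regions and test. There 0% of genes were called by edgeR and limma-voom. DESeq2 called 1 gene in the BnST and 15 in the Tn, and 525 and 552 genes had an unadjusted p under 0.05 by edgeR. Of the 10 early response genes, 5 passed with negative values in the hypothalamus in this contrast (NPAS4, EGR4, RRAD, FOS and EGR1) and 0 with positive ones, beside 0.0621% of all genes tested. The 10 were drawn from the original tests on these birds, so this count is not independent evidence. With treatment as a covariate FOS no longer passed (-0.35, adjusted p = 0.102 by edgeR), and 2 of 14965 genes were called in all.

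Within treatments, which separates the labels from the night with chicks, the differences in the hypothalamus pointed the same way but did not pass over all genes. Among sensitized birds, BTG2 ranged from 75.4 to 136.9 CPM (median 102.3) in birds labelled R and from 103.6 to 171.6 CPM (median 109.6) in birds labelled NR. Of the 17 birds labelled R, 9 lay below every bird labelled NR. The spread among birds labelled NR came from 2 females, birds 42 and 44, at 153.5 and 171.6 CPM, while the other 4 lay between 103.6 and 112.9 CPM. Means were 103.0 ± 16.7 CPM in R (SD, n = 17) and 125.7 ± 29.3 CPM in NR (SD, n = 6), a log2 difference of -0.28 (SE 0.10, unadjusted p = 0.00548, adjusted p = 0.916 by edgeR). TOB1 had means of 75.7 ± 6.10 CPM in R (SD, n = 17) and 81.5 ± 9.78 CPM in NR (SD, n = 6), a log2 difference of -0.10 (95% interval -0.22 to 0.02, adjusted p = 0.980 by edgeR).

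Among control birds, the 5 birds labelled S had 103.6, 115.7, 116.5, 140.9 and 147.1 CPM of BTG2 in the hypothalamus, against 129.1 to 181.1 CPM (median 144.6) in birds labelled NS. Of the 5, 3 lay below every bird labelled NS, and 8 of 17 birds labelled NS lay above all 5. Means were 124.8 ± 18.4 CPM in S (SD, n = 5) and 148.8 ± 14.7 CPM in NS (SD, n = 17), a log2 difference of -0.25 (SE 0.11, unadjusted p = 0.0222, adjusted p = 0.190 by edgeR). Without each bird labelled S in turn the difference lay between -0.33 and -0.20. An unadjusted p under 0.05 was common in this comparison, with 2925 of 15264 genes. TOB1 had 74.4, 81.9, 85.4, 86.7 and 88.7 CPM in birds labelled S, against 71.6 to 109.8 CPM (median 87.0) in birds labelled NS, a log2 difference of -0.06 (95% interval -0.19 to 0.06, adjusted p = 0.626 by edgeR).

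In the BnST and the Tn the labels made no detectable difference within treatments, although the intervals were wide. BTG2 in the BnST averaged 154.7 CPM in R and 153.1 CPM in NR (log2 difference 0.01, 95% interval -0.40 to 0.43), and 238.0 CPM in S and 231.9 CPM in NS (0.04, -0.40 to 0.48). In the Tn it averaged 127.5 CPM in R and 126.1 CPM in NR (0.01, -0.30 to 0.32), and 145.1 CPM in S and 140.4 CPM in NS (0.04, -0.29 to 0.38). TOB1 intervals were narrower, from -0.21 to 0.13 for R over NR and from -0.14 to 0.23 for S over NS in the BnST, and from -0.19 to 0.07 and from -0.21 to 0.07 in the Tn. The comparison of R with NR called 0% of genes in the hypothalamus and Tn and 0.00659% in the BnST (1 of 15182), and that of S with NS called 0% in each region, by edgeR. The numbers of genes at an unadjusted p under 0.05 were 810 and 685 for R over NR in the hypothalamus and Tn, and 319 and 505 for S over NS in the BnST and Tn. DESeq2 called 14 genes for R over NR in the Tn, 189 for S over NS in the hypothalamus and 0 in the other comparisons of these labels, and limma-voom called 0 in all of them.

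**Figure D3:**
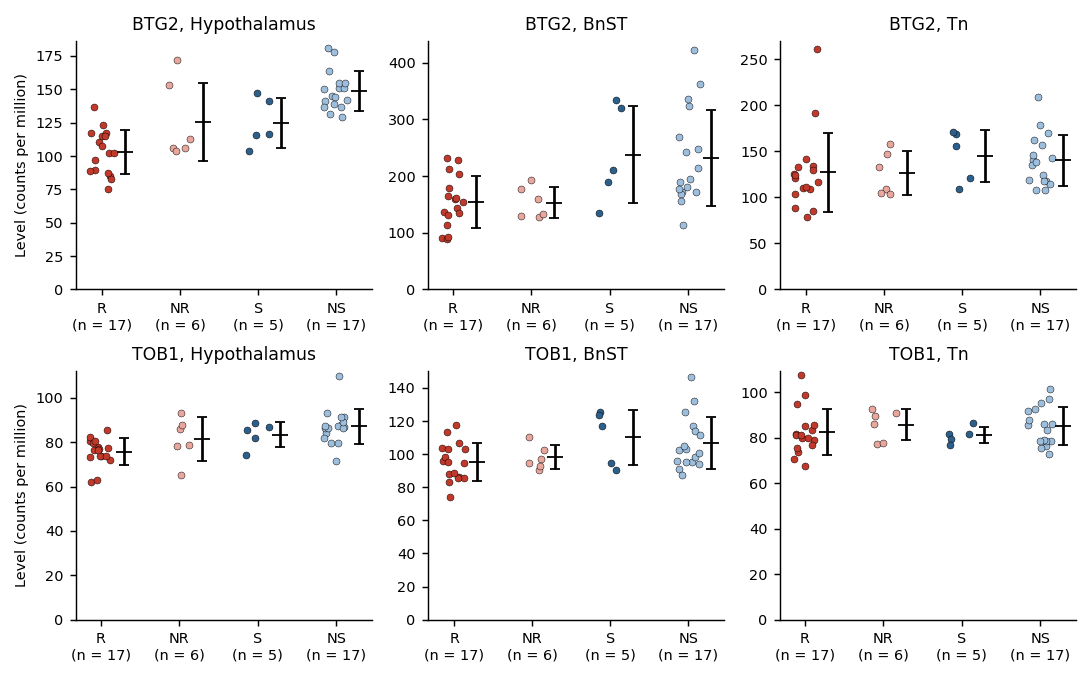
Level of BTG2 (upper row) and TOB1 (lower row) in CPM by response label in each region, with a point for each bird and bars for the mean ± SD (R n = 17, NR n = 6, S n = 5, NS n = 17). In the hypothalamus BTG2 means are 103.0 in R, 125.7 in NR, 124.8 in S and 148.8 in NS, while in the BnST they are 154.7 in R, 153.1 in NR, 238.0 in S and 231.9 in NS.

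No difference between the sexes passed over all genes. In the hypothalamus BTG2 averaged 123.2 ± 26.2 CPM in males (SD, n = 21) and 128.8 ± 26.1 CPM in females (SD, n = 27), and with treatment in the fit the log2 difference was -0.00 (95% interval -0.14 to 0.14, adjusted p = 0.993 by edgeR). In the BnST it averaged 202.3 ± 69.6 CPM in males and 186.5 ± 77.6 CPM in females, a log2 difference of 0.26 (SE 0.12, unadjusted p = 0.0355, adjusted p = 0.435 by edgeR). In the Tn it averaged 142.7 ± 40.8 CPM in males and 127.6 ± 23.7 CPM in females, a log2 difference of 0.20 (SE 0.09, adjusted p = 0.380 by edgeR). For TOB1 the log2 differences were 0.03 in the hypothalamus (-0.06 to 0.11), 0.13 in the BnST (SE 0.05, unadjusted p = 0.0108, adjusted p = 0.217 by edgeR) and 0.10 in the Tn (SE 0.04, unadjusted p = 0.0107, adjusted p = 0.195 by edgeR). Of 21 males, 17 lay above the female median in the BnST and 15 in the Tn for TOB1, and 11 and 14 for BTG2. Of all genes tested, sex called 5.18% (hypothalamus), 3.71% (BnST) and 4.07% (Tn). Without bird 17 neither gene passed in any region, with log2 differences for BTG2 of 0.02 (hypothalamus), 0.26 (BnST) and 0.21 (Tn) and adjusted p of 0.928, 0.460 and 0.335 by edgeR. For TOB1 these were 0.03, 0.13 and 0.10, with adjusted p of 0.738, 0.258 and 0.237 by edgeR.

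**Figure D4:**
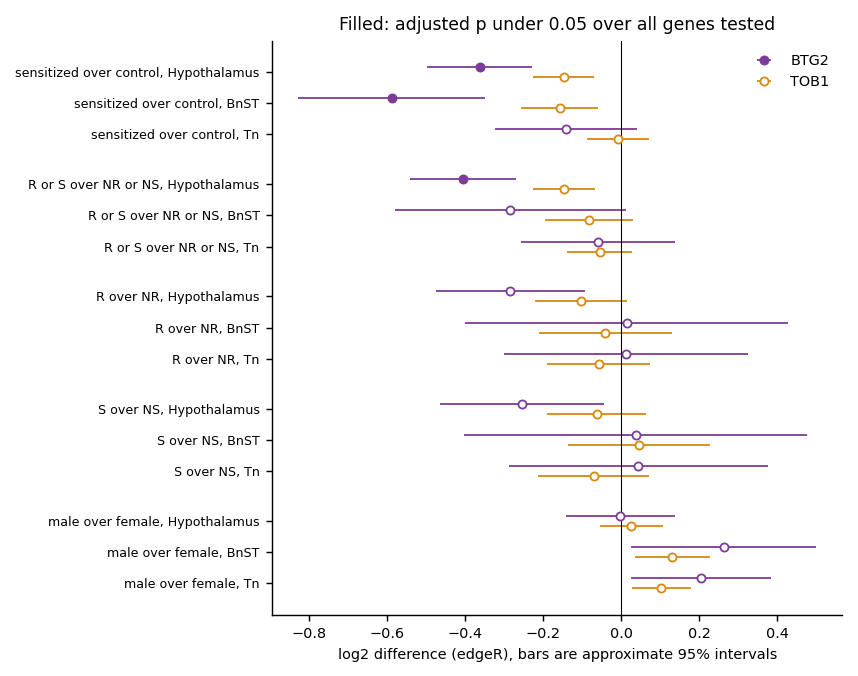
Log2 difference of BTG2 (purple) and TOB1 (orange) in each comparison and region by edgeR, with approximate 95% intervals and filled symbols for an adjusted p under 0.05. The filled symbols are BTG2 for sensitized over control in the hypothalamus (-0.36) and BnST (-0.59) and for R or S over NR or NS in the hypothalamus (-0.40).

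BTG2 and TOB1 varied together across birds in each region. Correlations were taken over the 48 birds on log2 levels with permutation tests of 100000 resamples, in a family of 15 relations, and 1e-05 is the smallest p that these can give. In the hypothalamus Pearson's r was 0.67 and Spearman's rho 0.67 (p = 1e-05 for each, adjusted 2.14e-05 and 2.5e-05), and r was 0.61 without the 2 birds farthest from the median of BTG2. In the BnST r was 0.86 and rho 0.82 (p = 1e-05 for each), with 0.83 without the 2 farthest birds. In the Tn r was 0.65 and rho 0.55 (p = 1e-05 and 6e-05), with 0.52 without the 2 farthest birds. These relations held within each number series, with r for birds 1 to 20 and birds 21 to 50 of 0.69 and 0.65 (hypothalamus), 0.85 and 0.88 (BnST) and 0.78 and 0.53 (Tn). On residuals from treatment, sex and number series, r was 0.52, 0.82 and 0.64 in the hypothalamus, BnST and Tn.

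Within treatments the relation between BTG2 and TOB1 was not found everywhere. In the BnST r was 0.82 among sensitized birds and 0.84 among control birds (permutation test, p = 1e-05 for each), and in the Tn 0.71 and 0.60 (p = 2e-04 and 0.00219). In the hypothalamus r was 0.74 among sensitized birds (p = 3e-05) and 0.19 among control birds (p = 0.370), and the SD of the log2 level of BTG2 was 0.29 in sensitized and 0.18 in control birds. Between the sexes, r in the Tn was 0.85 in males (p = 1e-05) and 0.33 in females (p = 0.0974). Neither of these differences between correlations was tested. Library depth was only weakly related to the members, with r between -0.26 and 0.15 with the log2 total count. In the hypothalamus r was negative for both members (-0.26 for BTG2 and -0.22 for TOB1) and for FOS (-0.33). Depth went with treatment there, with a median of 13243316 counts in sensitized and 11971634 in control libraries.

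FOS was correlated with both genes over all 48 birds in each region. The original tests on these birds had called FOS and BTG2 for treatment in the hypothalamus and BnST. They had called FOS and TOB1 for brooding duration in the hypothalamus. A correlation over all birds was thus partly built into the choice of genes there. On residuals from treatment, sex and number series, r of FOS with BTG2 was 0.67 (hypothalamus) and 0.78 (BnST). For FOS with TOB1 it was 0.49 (hypothalamus), 0.78 (BnST) and 0.38 (Tn). Correlations were not tested for a difference between regions. FOS with BTG2 had r of 0.80 and rho of 0.78 in the hypothalamus and 0.85 and 0.83 in the BnST (permutation test, p = 1e-05 for each), with 0.77 and 0.82 for r without the 2 birds farthest in FOS. In the Tn r was 0.42 and rho 0.39 (p = 0.00341 and 0.00592, adjusted 0.00568 and 0.00807), with 0.30 without the 2 farthest birds. FOS with TOB1 had r of 0.63 and rho of 0.67 in the hypothalamus and 0.81 and 0.77 in the BnST (p = 1e-05 for each), and 0.41 and 0.42 in the Tn (p = 0.00434 and 0.0032, adjusted 0.00592 and 0.0048), with 0.64, 0.77 and 0.35 for r without the 2 farthest birds. Within treatments, r of FOS with TOB1 was 0.59 in sensitized (p = 0.00248) and 0.32 in control birds (p = 0.127) in the hypothalamus, 0.79 and 0.77 in the BnST (p = 1e-05 and 3e-05), and 0.26 (p = 0.221) and 0.58 (p = 0.0026) in the Tn, by permutation tests. Among control birds it thus had a larger value in the Tn than in the hypothalamus. For FOS with BTG2, r was 0.76 in sensitized (p = 3e-05) and 0.53 in control birds (p = 0.00811, with rho of 0.33 and p = 0.112) in the hypothalamus, 0.68 and 0.85 in the BnST (p = 2.8e-04 and 1e-05), and 0.36 (p = 0.0818) and 0.41 (p = 0.0461) in the Tn. In the BnST r of FOS with BTG2 was 0.74 within birds 1 to 20 and 0.93 within birds 21 to 50. In the hypothalamus it was 0.86 and 0.76. In the Tn it was 0.47 (p = 0.0472) and 0.28 (p = 0.147), and 0.28 on residuals (p = 0.0525), by permutation tests. The relation in the Tn thus kept its sign but missed the threshold in the larger series and once treatment, sex and series were taken out.

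**Figure D5:**
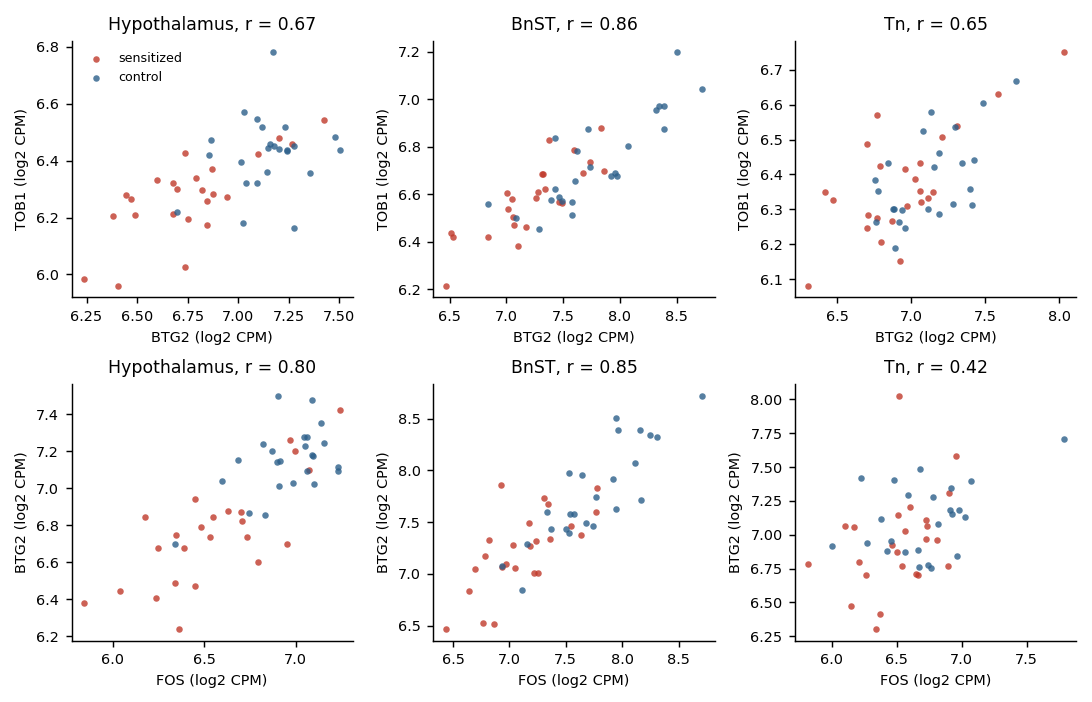
Log2 level of TOB1 against BTG2 (upper row) and of BTG2 against FOS (lower row) over the 48 birds in each region, sensitized birds in red and control birds in blue. The points lie closest to a line in the BnST (r = 0.86 and 0.85) and are most scattered for FOS with BTG2 in the Tn (r = 0.42).

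Between regions of the same bird the genes were only weakly related. BTG2 in the hypothalamus and BnST had r of 0.37 and rho of 0.36 (permutation test, p = 0.00909 and 0.0113, adjusted 0.00974 and 0.0131), with 0.36 for r without the 2 farthest birds. The relation did not hold within treatments, with r of 0.04 among sensitized birds (p = 0.833) and 0.05 among control birds (p = 0.809). It was 0.59 within birds 1 to 20 (p = 0.00717) and 0.28 within birds 21 to 50 (p = 0.140). BTG2 in the hypothalamus and Tn had r of 0.41 and rho of 0.42 (p = 0.00411 and 0.00276), with 0.31 without the 2 farthest birds and 0.40 and 0.61 in the 2 number series. In the BnST and Tn r was 0.43 and rho 0.43 (p = 0.00225 and 0.00241), with 0.42 without the 2 farthest birds and 0.28 and 0.58 in the series. TOB1 had r of 0.38 and rho of 0.33 for hypothalamus with BnST (p = 0.00753 and 0.0215), 0.21 and 0.20 for hypothalamus with Tn (p = 0.157 and 0.162) and 0.40 and 0.38 for BnST with Tn (p = 0.00492 and 0.00733). Without the 2 farthest birds these r were 0.36, 0.19 and 0.35. The 2 number series gave 0.53 and 0.33 for hypothalamus with BnST, 0.11 and 0.33 for hypothalamus with Tn and 0.30 and 0.49 for BnST with Tn.

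Ranked among all genes tested in a region by r over the 48 birds, the genes most like BTG2 in the hypothalamus were EGR4 (0.88), the long non-coding RNA ENSCJPG00005007063 (0.85), FOS (0.80), NPAS4 (0.78) and EGR1 (0.77), with TOB1 at rank 8 of 14490. EGR4 and EGR1 encode zinc finger transcription factors and NPAS4 a transcription factor induced by neuronal activity. In the BnST the 5 were TOB1 (0.86), EGR4 (0.86), FOS (0.85), JUN (0.84) and the same long non-coding RNA (0.82). In the Tn TOB1 was at rank 2 of 14241, after the unnamed gene ENSCJPG00005021492 (0.67), and the other genes of the 5 have no name in the sources used here. Most early response genes ranked lower for BTG2 there, with FOSB at rank 12, JUN at 48, RRAD at 66, EGR1 at 69, EGR4 at 76, FOS at 586 and NPAS4 at 963. The others were SIK1 at rank 930, NR4A3 at 1075 and KLF2 at 9822 (r of -0.12). These were already far down in the hypothalamus, with NR4A3 at rank 103, KLF2 at 412 and SIK1 at 929, so SIK1 hardly moved. For TOB1, BTG2 was the most similar gene in both the hypothalamus and BnST, and at rank 2 in the Tn. FOS was at rank 3 for TOB1 in the hypothalamus, rank 4 in the BnST and rank 366 in the Tn, and EGR4 was at rank 8, rank 3 and rank 692. The 95th percentile of r over all genes lay between 0.32 and 0.45. On residuals from treatment, sex and number series, EGR4 stayed the gene most like BTG2 in the hypothalamus (0.82), and TOB1 moved to rank 169 in the hypothalamus, rank 3 in the BnST and rank 20 in the Tn. In the list for TOB1 on residuals, BTG2 was at rank 35 in the hypothalamus, rank 1 in the BnST and rank 3 in the Tn, and in the hypothalamus FOS was at rank 58 and EGR4 at rank 129.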

How the data were processed

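Per the labels and the methods of the original work, reads were base-called with CASAVA 1.8.2, trimmed and filtered, mapped with HISAT2 to Coturnix_japonica 2.0 and counted per Ensembl gene with HTSeq. The authors deposited raw counts of 21561 genes in 144 libraries, with no normalization. The strand setting is not given in the sources used here. No column lacked a sample, and no library was a duplicate of another among 1128 pairs in each region.

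Counts were tested in R 4.3.3 with edgeR 4.0.16 (TMM, filterByExpr at a count of 10 and a total of 15, robust quasi-likelihood F test, Benjamini-Hochberg adjustment over all genes tested, threshold 0.05). SEs were the log2 difference over the square root of F, and 95% intervals are 1.96 SEs on either side. Treatment was tested alone in each region, sex with treatment in the fit, and response labels without the 3 birds labelled NA. In tests within a region, p-values measure the spread between birds. The main fits of regions and of treatment by region took the libraries of a bird as independent. Their p-values therefore mix the spread between and within birds, and the bird as a replicate block was an alternative there. CPM and log2 levels (prior count 2) came from all libraries normalized together. Permutation tests were two-sided with 100000 resamples, or exact where a group held fewer than 10 birds (Python 3.11.15, scipy 1.17.1). Alternatives used DESeq2 1.42.0, limma 3.58.1 (voom) and sva 3.50.0. Scripts were tested on simulated data.

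Libraries with the same bird number come from 1 bird. Their deviations from the group means correlated by more than 0.1 in all 48 birds for each pair of regions. The same bird gave the best match in all 48 birds for hypothalamus with BnST and with Tn. For BnST with Tn it did so in 45 of 48. The bird number was therefore taken to pair the libraries.

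The members and gene lists were chosen with earlier results of these data known. Names come from the original work, which pairs 21 identifiers with a gene name or description, 18 of them with a gene identifier whose symbol was the same in RefSeq (Coturnix japonica 2.1). The rule named BTG2, TOB1, FOS, the 5 genes most like each member in a region, and members of lists past the threshold. Of 35 early response genes 10 could be matched. The family (5 genes), deadenylation (22) and cell type marker (46) lists had 0 matched genes and were not analysed here, so the regions were not checked against markers. Sequences were not used here.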

Additional observations from a re-analysis of the deposited data

Results flagged for a closer look

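BTG2 in the hypothalamus of 1 control male, bird 31, stood apart from its group. The bird is labelled NS and had 181.1 CPM, the highest value of BTG2 in the hypothalamus, while the other 7 control males lay between 129.1 and 151.3 CPM. The gap to the nearest bird was 0.572 of the range of the group, above the critical value of Dixon's test for 8 samples (0.526). In all, 18 groups of 4 to 10 birds were examined and 1 was set apart, and chance alone sets apart about 1 in 20.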

How the results depend on the processing

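Of 390 log2 differences of BTG2 and TOB1 under alternatives, 366 kept their direction and their side of the threshold, 2 lost a call, 2 gained one and 20 changed sign, none of these 20 from a called value. The bird as a replicate block changed no call (BTG2 -0.56, TOB1 -0.31 for hypothalamus over BnST). Calls were lost for R or S over NR or NS in the hypothalamus (BTG2) with treatment as a covariate (-0.27, a term that overlaps with the labels by design) and for treatment in the BnST (BTG2) with limma-voom (-0.56), and gained with 2 surrogate variables for TOB1 in the BnST (-0.17) and BTG2 in the Tn (-0.30). The values that changed sign were these. With treatment as a covariate, BTG2 over the labels was 0.025 in the BnST and 0.0296 in the Tn. For sex in the hypothalamus, BTG2 was 0.0174 without bird 17, 0.0140 without bird 49, 0.0106 with limma-voom, 0.00497 with no filter and 0.0474 with number series, and TOB1 -0.0031 with no treatment covariate. For R over NR, BTG2 in the BnST was -0.00156 without bird 49, -0.0296 with limma-voom and -0.0148 with number series, and in the Tn -0.0303 with limma-voom and -0.0648 with number series. For S over NS with number series, BTG2 was -0.00784 in the BnST and -0.0741 in the Tn. Without each bird labelled S in turn, BTG2 ranged from -0.12 to 0.18 in the BnST and from -0.0242 to 0.13 in the Tn, TOB1 from -0.00589 to 0.11 in the BnST. The causes of these changes were not tested.

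Some relations missed the threshold in a subset. In sensitized birds these were FOS with BTG2 (0.36) and with TOB1 (0.26) in the Tn, and in control birds BTG2 with TOB1 (0.19) and FOS with TOB1 (0.32) in the hypothalamus. In females they were BTG2 with TOB1 (0.33), FOS with BTG2 (0.28) and FOS with TOB1 (0.32), all in the Tn. Also in the Tn they were FOS with BTG2 within birds 21 to 50 (0.28) and on residuals (0.28) and FOS with TOB1 within birds 1 to 20 (0.37). Between regions, BTG2 in hypothalamus and BnST gave 0.0447 in sensitized, 0.0523 in control birds, 0.28 in birds 21 to 50 and 0.38 in males. In hypothalamus and Tn it gave 0.35 in sensitized, 0.26 in control birds and 0.40 in birds 1 to 20, and in BnST and Tn 0.40, 0.34 and 0.28, with 0.35 in males. TOB1 in hypothalamus and BnST gave 0.37 in sensitized, 0.11 in control birds, 0.33 in birds 21 to 50 and 0.20 in males, and in BnST and Tn 0.35 in control birds, 0.30 in birds 1 to 20 and 0.30 in males. The smaller subsets hold fewer birds. The larger effect of treatment on BTG2 than on TOB1 in the Tn was -0.14 without bird 49 and -0.0465 in birds 1 to 20. Subsets by sex, these subsets of the larger effect and the removal of bird 14 were chosen after seeing the data.

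Counts of genes called moved between 3 and 8 for treatment in the hypothalamus (main 3), 7 and 14 in the BnST (main 8), 0 and 2 in the Tn (main 0) and 2 and 20 for the labels in the hypothalamus (main 9). Groups of 5 and 6 birds limit the comparisons within treatments, where 95% intervals for BTG2 in the BnST spanned -0.40 to 0.48. Depth was no such limit, as counting error was at most 3.07% at the median level.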

Other observations

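At the far end of the ranking from EGR4 and FOS, UCN3 was the gene least like BTG2 in the hypothalamus, at rank 14490 of 14490 genes. UCN3 encodes urocortin 3, a peptide of the corticotropin-releasing factor family. This pair was chosen for its value, which is therefore given as a description with no test. Over 48 birds BTG2 and UCN3 had a Pearson r of -0.61 and a Spearman rho of -0.61, and r was -0.58 without the 2 birds farthest from the median of UCN3. It was -0.76 within birds 1 to 20 and -0.58 within birds 21 to 50. It was nearer 0 within sensitized birds (-0.29), within control birds (-0.15) and on residuals from treatment, sex and number series (-0.32, rank 13637 of 14490). The log2 differences between sensitized and control birds had opposite signs, with -0.36 for BTG2 and 0.90 for UCN3 by edgeR. The original tests on these birds had called both genes for treatment in the hypothalamus, so these values are not independent evidence. Whether treatment accounts for the correlation was not tested. TOB1 and UCN3 in the hypothalamus had r of -0.40 and rho of -0.42, with -0.40 without the 2 farthest birds. It was -0.53 and -0.36 in the 2 number series, -0.19 within sensitized birds and 0.14 within control birds. The BnST differed in that r stayed about the same on residuals. There BTG2 and UCN3 had r of -0.63 (rank 14355 of 14383) and -0.64 on residuals, and TOB1 and UCN3 -0.60 and -0.57.

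The birds labelled NA entered no comparison of labels. In the hypothalamus, BTG2 was at 147.0 CPM in bird 50, a sensitized male, and at 130.2 and 129.9 CPM in birds 3 and 4, both control females. TOB1 was at 89.1 CPM in bird 50 and at 95.01 and 72.3 CPM in birds 3 and 4. In the BnST, BTG2 was at 155.4 CPM in bird 50 and at 197.3 and 251.3 CPM in birds 3 and 4.

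Some birds held the lowest value of a gene in more than 1 region. Bird 27, a sensitized female labelled R, had the lowest value of BTG2 in the hypothalamus (75.4 CPM) and in the Tn (78.9 CPM) and of TOB1 in the Tn (67.6 CPM). Bird 7, likewise a sensitized female labelled R, had the lowest value of both genes in the BnST (88.4 CPM of BTG2 and 74.2 CPM of TOB1) and of TOB1 in the hypothalamus (62.1 CPM). The highest value of BTG2 belonged to a different bird in each region, with bird 31 in the hypothalamus (181.1 CPM, and 172.5 CPM in the BnST), bird 38 in the BnST (422.0 CPM) and bird 14 in the Tn (261.0 CPM, with the highest TOB1 there at 107.5 CPM). These birds were picked out after their values were seen, and no test was made.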
